A study of Mus musculus with 14 samples.

Results

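The SR and hnRNP splicing proteins were followed here as 31 protein-coding genes, of 53239 gene symbols in the tables. The members were every mouse gene whose symbol begins with Srsf and a digit (11 genes) or with Hnrnp (20 genes), with 2 pseudogene symbols left out. The rule used symbols only. RNA came from whole testes of C57BL/6 mice at 21 days of age, either Adad2+/+ (WT, n = 3, animals 121, 140 and 17) or homozygous for a mutant Adad2 allele, Adad2M/M (MUT, n = 4, animals 12, 69, 93 and 94). Every animal of both genotypes was heterozygous for the RiboTag allele Rpl22-HA, which gives a haemagglutinin-tagged ribosomal protein after Cre recombination, and carried Stra8-iCre, a transgene whose Stra8 promoter drives Cre in differentiating germ cells, so that tagged ribosomes are expected in those cells and their descendants alone. Each animal gave 1 library of total testis RNA (input) and 1 library of RNA precipitated with anti-HA (IP), 14 libraries in all, and the IP/input ratio was read as ribosome association. Input holds RNA of all testis cells, whereas the IP is expected to come from germ cells alone. Cell of origin and ribosome association therefore cannot be told apart in this ratio, nor in transcript shares compared between IP and input. The comparisons ask whether the abundance or the ribosome association of the splicing factor transcripts differed between genotypes, and which of each gene's transcripts were carried into the IP.

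SR proteins have an RNA recognition motif and a domain rich in arginine and serine, and typically bind exonic enhancers and promote exon inclusion. The hnRNP proteins coat nascent RNA and often, though not always, oppose inclusion. Many genes of both families hold their own protein level in check through unproductive splicing, in which a poison exon with an early stop codon, or a retained intron, yields an RNA that is degraded by nonsense-mediated decay (NMD) or kept in the nucleus. The testis is a tissue with unusually rich alternative splicing.

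Total expected counts were 22987974 to 30330450 in the input libraries and 25037235 to 30871330 in the IP libraries, and members took 0.507 to 0.659% of input counts and 1.03 to 1.24% of IP counts. Adad2 itself lay at 25.0 to 30.1 CPM (counts scaled to library size) in WT input and 99.2 to 109 CPM in WT IP, against 5.04 to 11.3 CPM in MUT input and 6.33 to 11.3 CPM in MUT IP, so all 14 libraries matched their labelled genotype. Libraries differed in complexity. The MUT inputs of animals 12 and 69 held 16024 and 15438 gene symbols above 0, whereas the other 5 inputs held 21334 to 27791, and the IP libraries held 19655 to 21880 in WT and 12744 to 15024 in MUT. Summed round spermatid markers reached 261 to 311 CPM in WT input and 144 to 160 CPM in MUT input, while Sertoli markers reached 1017 to 1182 CPM and 1099 to 1664 CPM. Late pachytene markers reached 3055 to 3434 CPM in WT input and 2217 to 2536 CPM in MUT input. In the IP they reached 6337 to 6923 CPM and 4704 to 5008 CPM. Spermatogonial and early meiotic sums overlapped between genotypes in both fractions. The part of these differences in any result below was not tested, and in whole testis RNA fewer cells of a type and less RNA per cell cannot be told apart.

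The 31 genes were represented by 259 annotated transcripts, of which 129 were annotated as protein coding and 130 as something else, namely 31 NMD targets, 68 retained-intron transcripts and 31 processed transcripts. NMD transcripts occurred in 17 members and retained-intron transcripts in 20, while 8 members had coding transcripts alone. All 31 NMD transcripts had their stop codon more than 50 nt before the last exon junction, which is the annotation's own criterion. In 9 of them, from 6 genes, the stop lay in an exon that overlapped no exon of any coding transcript of the gene, the arrangement of a classical poison exon. The exons of the genes whose poison transcripts carried an appreciable share of counts are printed below from their 5′ end to the stop codon, which is in capitals, on GRCm38 with GENCODE M21 models. Srsf3-201 lay at chr17:29039454-29039487 on the plus strand, Srsf4-203 at chr4:131884276-131884390 on the plus strand, Hnrnpl-213 at chr7:28817335-28817393 on the plus strand and Hnrnpll-203 at chr17:80044976-80045022 on the minus strand.
Srsf3-201: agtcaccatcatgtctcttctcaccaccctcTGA
Srsf4-203: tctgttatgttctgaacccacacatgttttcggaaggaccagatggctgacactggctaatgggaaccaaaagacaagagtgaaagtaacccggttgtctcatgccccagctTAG
Hnrnpl-213: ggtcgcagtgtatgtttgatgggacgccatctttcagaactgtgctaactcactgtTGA
Hnrnpll-203: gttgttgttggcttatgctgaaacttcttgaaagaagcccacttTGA
In Srsf3 the reading frame was open for 34 nt of a 456 nt exon and in Hnrnpl for 59 nt of a 70 nt exon. Srsf4-204, the Srsf4 transcript with nearly all of the poison counts, began within the same exon as Srsf4-203 and ended its frame at the same TAG. The deposited length of Srsf3-201 was 1919 nt against 2594 nt in M21, so its model differed between annotation versions. For 250 of the 259 transcripts the lengths were equal.

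Per unit length, Hnrnpk was the most abundant member, with a mean of 1046 TPM (counts scaled to transcript length and library) over the 14 libraries and a range of 236 to 1915 TPM. Hnrnpk binds poly(C) stretches. It was followed by Hnrnpf, a G-tract binding protein, at 688 TPM, Hnrnpa2b1 at 554 TPM, Hnrnpu, the scaffold attachment factor, at 451 TPM and Hnrnph1 at 417 TPM. In WT input, Hnrnpf (317 ± 29.1 TPM, SD, n = 3) and Hnrnpk (298 ± 31.6 TPM) lay within their spread of each other. Srsf5 (125 ± 10.6 TPM) and Srsf1 (106 ± 11.9 TPM) were the highest SR genes there. At the other end stood Srsf12 with a mean of 1.25 TPM over all libraries, listed at 0 in the IP of MUT animal 12, followed by Hnrnph2 at 30.4, Srsf4 at 31.4, Hnrnpul2 at 34.3 and Hnrnpa1 at 40.0 TPM. The other 30 members were above 0 in all 14 libraries. Hnrnpa1 has many processed pseudogenes, so its estimate is uncertain.

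**Figure D1:**
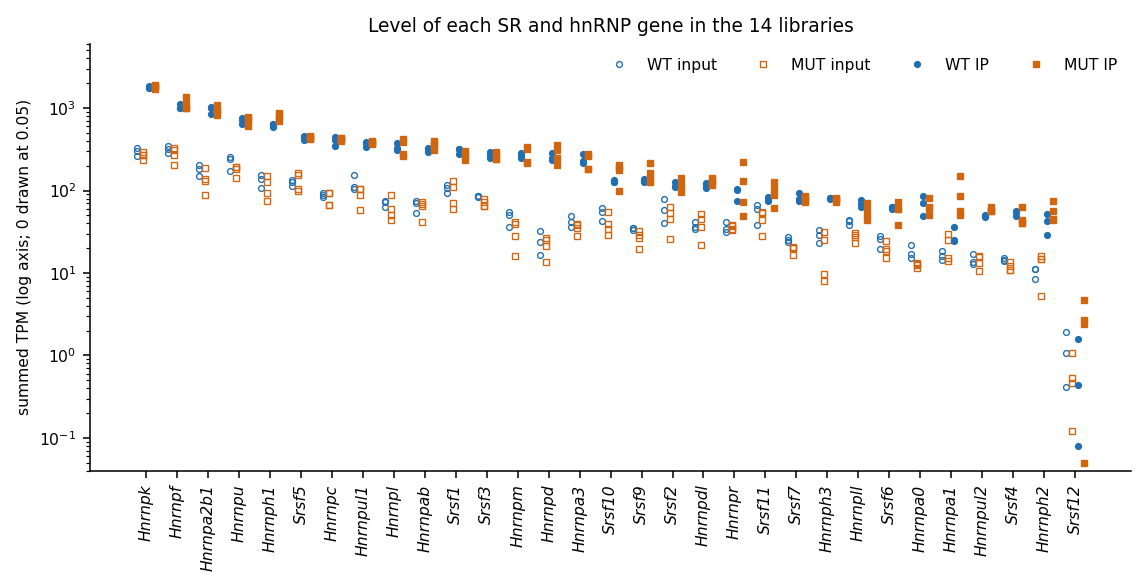
Abundance of the 31 members in TPM (log axis) in each of the 14 libraries, ordered by mean; points are single libraries coloured by genotype and fraction. Hnrnpk and Hnrnpf stand at the top and Srsf12 alone lies near 1 TPM.

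In the input, no splicing factor passed the test between MUT and WT testes. By the quasi-likelihood test of edgeR, 0 of 31 members passed an adjusted p of 0.05, beside 0.0082% of all 36572 features tested, and DESeq2 also called 0. At an unadjusted p under 0.05 there was 1 member by edgeR (6.36% of features) and 2 by DESeq2. Without animals 12 and 69 there were 10 by edgeR, of which 0 passed after adjustment (smallest adjusted p of 0.125). In that fit 21 members lay above 0, with a median of 0.11 against −0.07 over all features. Shares of features at the unadjusted threshold were not counted for DESeq2 or for that fit. The fitted difference was under 0.5 on the log2 scale in 29 of 31 members, with a median standard error of 0.18, and its median was −0.06 against −0.18 over all features. SR genes lay below 0 in 10 of 11 cases and hnRNP genes above 0 in 12 of 20. With relative log expression size factors, 17 rather than 13 of the 31 lay above 0 and the median was 0.01. With limma on log2(TPM + 1), 4 of the 31 lay above 0, with a median of −0.28 against −0.21 over all features. The balance of signs in input thus rested on the scale.

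The member at an unadjusted p under 0.05 was Hnrnpll, an hnRNP L paralogue known for regulating CD45 splicing in lymphocytes. Its CPM was 142, 158 and 154 in the WT inputs and 122, 121, 104 and 125 in the MUT inputs. All 4 MUT values lay below all 3 WT values, a pattern shown by 11.3% of all features. The log2 difference was −0.34 ± 0.11 (SE), with an adjusted p of 0.394 by edgeR. Srsf12 (−0.96 ± 1.28), Hnrnph3 (−0.35 ± 0.36) and Hnrnpa0 (−0.31 ± 0.15) were, with Hnrnpll, the 4 lowest log2 differences, and Hnrnpa1 (0.59 ± 0.32), Hnrnph2 (0.33 ± 0.33) and Hnrnpdl (0.27 ± 0.29) were the highest, and none passed the test.

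In ribosome-bound RNA no splicing factor passed by edgeR, while DESeq2 called 4. In the IP, edgeR called 0 of 31 members between genotypes (0.00764% of 26186 features), with 3 at an unadjusted p under 0.05 (11.6% of features). The median log2 difference was −0.01 against −0.15 over all features, and 15 members lay above 0. With relative log expression factors the median of all features moved to −0.05, that of the members to 0.10, and 25 members lay above 0, so the balance of signs rested on the scaling.

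Hnrnpa1, which encodes an abundant protein that binds splicing silencers, showed the largest difference in the IP. Its CPM was 32.8, 34.1 and 43.2 in WT IP and 98.2, 186, 70.5 and 76.6 in MUT IP, so every MUT library exceeded every WT library. The fitted difference was 1.58 ± 0.37 on the log2 scale, with an adjusted p of 0.114 by edgeR, 7.0e-05 by DESeq2 and 0.0754 to 0.281 under the other alternatives. Without animals 12 and 69 the difference was 0.99 ± 0.17. In the inputs of the same animals, Hnrnpa1 lay at 27.9, 34.2 and 42.7 CPM in WT and at 38.3, 32.5, 63.4 and 75.9 CPM in MUT, with overlap between genotypes.

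Hnrnpul2, a relative of Hnrnpu, lay at 218, 235 and 201 CPM in WT IP and at 255, 244, 271 and 263 CPM in MUT IP. The groups did not overlap, the log2 difference was 0.27 ± 0.10 and the adjusted p was 0.273 by edgeR, 0.000354 by DESeq2 and 0.119 to 0.719 under the other alternatives. Hnrnpa1 and Hnrnpul2 were the 2 members with all MUT IP values above all WT IP values (1.72% of all features), and Hnrnpk, Hnrnpl and Srsf1 were the 3 with all MUT values below (15.1% of all features). Hnrnpl, which binds CA repeats, had CPM of 520, 448 and 427 in WT IP and 375, 398, 359 and 411 in MUT IP, with a log2 difference of −0.25 ± 0.10 and an adjusted p of 0.374 by edgeR. DESeq2 called Hnrnpa1, Hnrnpul2, Hnrnpdl and Hnrnph1, all higher in MUT, beside 9.56% of all features in either direction (426 higher and 2078 lower of 26186). After Hnrnpa1, the highest fitted values were those of Srsf12 (1.42 ± 2.11) and Hnrnph2 (0.30 ± 0.22), and the lowest were those of Hnrnpll (−0.29 ± 0.15), Hnrnpl and Srsf4 (−0.17 ± 0.18).

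**Figure D2:**
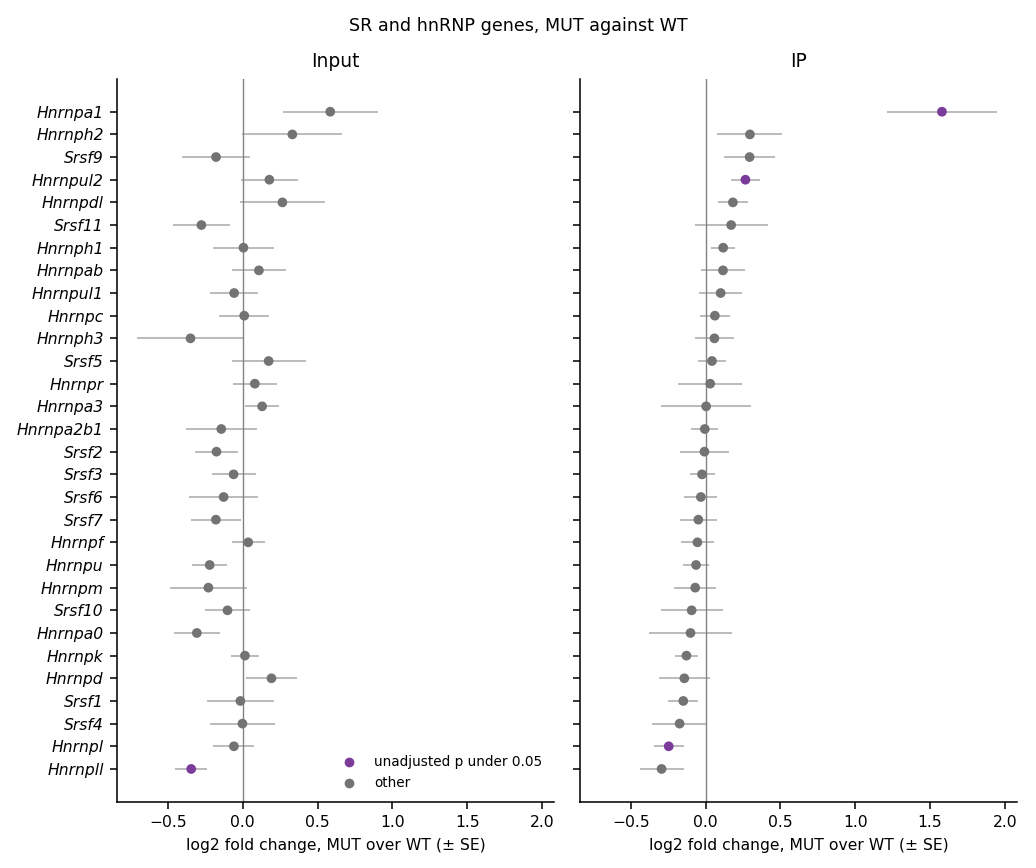
Log2 difference between MUT (n = 4) and WT (n = 3) for each member except Srsf12, in input and in IP, with bars of 1 standard error from edgeR; Srsf12 is omitted because its standard errors exceed 1. Most points lie within 0.5 of 0, and Hnrnpa1 in the IP stands apart at 1.58.

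Most splicing factor genes were higher in IP than in input, above the median of all features tested. In WT, 25 of 31 members were higher in IP than in input and 0 were lower, beside 13.0% higher and 6.37% lower among 34864 features, and the median log2 difference was 1.29 against −0.60 over all features. The largest adjusted p among the 25 was 0.0368 (edgeR, with animal as a block). All 25 had an IP/input ratio above 1 in each of the 3 WT animals. Leaving out animal 121 or animal 140 left 0 calls among all features, members included, while leaving out animal 17 left 20. With scaling factors taken over all 14 libraries, the median of all features moved to −0.91, that of the members to 0.98, and 23 members were higher and 1 lower. Calls over all features then split into 3450 higher and 3389 lower, against 4541 and 2220. Many features had low counts. Among those with at least 10 counts in every WT library, 25 of 30 members were higher and 0 lower. Beside them, 5512 of 19518 features were higher and 5813 lower. The median was then 1.12 for members and −0.09 for all features. Markers of somatic cells, in which the Stra8 promoter is not active, moved the other way from the members. In WT IP, 8 of 8 Sertoli and 5 of 5 Leydig genes were lower, with 2 of 4 macrophage and 2 of 4 vessel and blood genes. Germ cell lists were not uniform. In WT, 5 of 5 spermatogonial and 5 of 5 early meiotic genes were higher. Late pachytene genes were 4 higher and 1 lower of 5, and round spermatid genes 1 higher and 2 lower of 6 (median −0.95). In MUT, 4 of 8 Sertoli and 0 of 5 Leydig genes were called lower (3.56% of features), with medians of −4.61 and −4.42.

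The hnRNP genes led the order, with 17 of 20 called higher and a median of 1.42. Hnrnpd, the AU-rich element binding protein AUF1, had IP/input ratios of 5.88, 4.52 and 6.14 in the 3 WT animals and a log2 difference of 2.45 ± 0.13. Hnrnpm, a GU-rich sequence binder, had ratios of 5.15, 4.22 and 4.90 (log2 2.24 ± 0.10), and Hnrnpa2b1 of 4.51, 3.63 and 4.25 (log2 2.04 ± 0.10). Hnrnpl followed at 1.90 ± 0.14 and Hnrnpc, which binds uridine tracts of pre-mRNA, at 1.69 ± 0.14. The ratios of Hnrnpd and Hnrnpm overlapped between animals, as did those of Hnrnpm and Hnrnpa2b1.

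Among SR genes, 8 of 11 were called higher in WT with a family median of 1.21. Srsf3, the smallest SR protein, had ratios of 3.55, 2.85 and 2.68 (log2 1.59 ± 0.11), Srsf9 of 3.54, 2.88 and 2.52 (1.56 ± 0.13) and Srsf4 of 3.11, 2.62 and 2.53 (1.45 ± 0.11). Srsf5, Srsf7 and Srsf2 lay between 1.21 and 1.29. Srsf1, the founding member of the family, had ratios of 1.57, 1.28 and 1.37 and the smallest called difference, 0.48 ± 0.09, and it lost its call, as did Srsf6 (0.59 ± 0.10), when scaling factors came from all 14 libraries.

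The 6 members that did not pass in WT were Srsf10 (0.24 ± 0.12), Srsf11 (−0.08 ± 0.09), Srsf12 (−1.87 ± 2.04), Hnrnpr (0.34 ± 0.15), Hnrnpll (0.37 ± 0.10) and Hnrnpa1 (0.40 ± 0.13). Srsf10 is a splicing repressor activated by dephosphorylation and Srsf11 an SR-related protein also called p54. Srsf11 had ratios of 1.01, 0.856 and 0.973 in WT, and with factors from all 14 libraries its log2 difference was −0.40 and was called lower, so its call rests on the scaling.

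In MUT, 19 of 31 members were higher in IP and 0 lower (6.35% higher and 3.56% lower among 22918 features), with a median of 1.04 against −0.63 over all features. The 19 were all among the 25 called in WT. They comprised 14 of 20 hnRNP genes and 5 of 11 SR genes, and the leading values were those of Hnrnpm (2.13 ± 0.21), Hnrnpa2b1 (1.91 ± 0.16), Hnrnpd (1.78 ± 0.17), Srsf9 (1.73 ± 0.26) and Hnrnph3 (1.69 ± 0.26). The lowest were those of Srsf10 (−0.10 ± 0.15), Hnrnpr (−0.04 ± 0.16) and Srsf11 (0.02 ± 0.23). Hnrnpa3, Hnrnpdl, Hnrnph2, Srsf1, Srsf4 and Srsf6 passed in WT and not in MUT. Each single MUT animal left out gave 15 calls, and leaving out both animals 12 and 69 gave 0. With at least 10 counts in every MUT library, 20 of 30 members were higher, beside 1960 of 9872 features. The median was then 0.87 for members and −0.02 for all features. Over both genotypes, with each genotype on its own scaling factors, 24 members had IP above input in all 7 animals, beside 19.9% of 16014 features. All 7 IP values lay above all 7 input values for 28 members on the TPM scale (26.5% of features), with Hnrnpa1, Srsf11 and Srsf12 as the exceptions, and for 21 members in CPM with factors over all 14 libraries (13.1% of features).

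**Figure D3:**
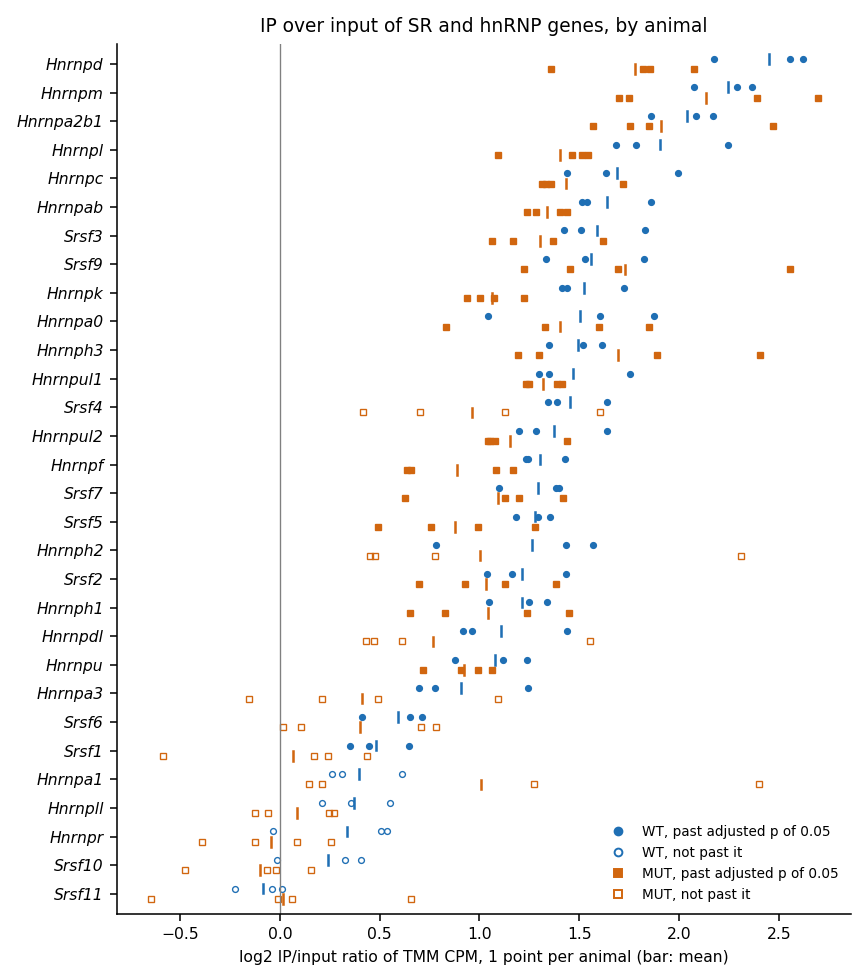
IP/input ratio of CPM (log axis) for each member except Srsf12, with 1 point per animal, WT (n = 3) and MUT (n = 4), each genotype on its own scaling factors; the line marks a ratio of 1. Hnrnpd and Hnrnpm lie highest in WT, and Srsf10 and Srsf11 lie about 1.

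The difference in ribosome association between genotypes was tested directly as an interaction of fraction and genotype. It called 0 of 31 members and 0.0% of 16014 features by edgeR, with 0 members at an unadjusted p under 0.05 (7.22% of features). DESeq2 called 0 members, beside 6.11% of features (34 higher and 945 lower). With scaling factors over all 14 libraries, no member had IP/input ratios without overlap between genotypes, beside 1.15% of features with MUT above and 8.97% with MUT below. With each genotype on its own factors, all MUT ratios lay below all WT ratios for 5 members, Hnrnpab, Hnrnpd, Hnrnpf, Hnrnpk and Hnrnpl (18.5% of features), and above them for 0 (0.331% of features), so this pattern rests on the scaling. The largest values were those of Srsf12 (2.97 ± 3.16), Hnrnpa1 (0.90 ± 0.56), Hnrnph3 (0.51 ± 0.32) and Srsf9 (0.48 ± 0.33), and the lowest were those of Hnrnpd (−0.36 ± 0.22), Hnrnpl (−0.19 ± 0.15) and Hnrnpa3 (−0.19 ± 0.31). Hnrnpa1 had ratios of 1.53, 1.20 and 1.24 in WT and 2.42, 5.28, 1.16 and 1.11 in MUT, each on its own genotype's factors. With factors over all 14 libraries the ratios were 1.18, 0.999 and 1.01 in WT and 2.56, 5.72, 1.11 and 1.01 in MUT, so that animals 12 and 69 were high on both scales and animals 93 and 94 were not. The median standard error of the interaction was 0.22 on the log2 scale. By edgeR, 20 members lay above 0 and 11 below, with a median of 0.05 against −0.29 over all features. With limma on log2(TPM + 1), 30 lay above 0, with medians of 0.30 and 0.05. Without animal 140, 7 lay above 0 by edgeR. Without animals 12 and 69, 8 lay above 0 and 5 had an unadjusted p under 0.05, but 0 passed after adjustment (0.274% of features). The balance of signs thus rested on the scale and on single animals.

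Genes that work with these proteins were also mostly higher in the IP. Over all features, 13.0% were higher and 6.37% lower in WT IP, with a median of −0.60. In MUT IP, 6.35% were higher and 3.56% lower, with a median of −0.63. Of 31 core snRNP protein genes, which build the spliceosome, 29 were higher in WT IP (median 1.54) and 19 in MUT IP (median 1.25). Of 14 SR-related genes, 11 were higher in WT, including the exon junction and speckle factors Acin1 (1.41 ± 0.08), Rnps1 (1.42 ± 0.10) and Srrm2 (1.70 ± 0.08), and 7 in MUT. Of 13 hnRNP-type genes under other symbols, 10 were higher and 1 lower in WT, and 8 higher and 1 lower in MUT. Pcbp1, a poly(C) binding relative of Hnrnpk, stood at 2.67 ± 0.10 in WT, and the gene lower in both genotypes was Ptbp3 (−1.13 ± 0.17 in WT). The kinases and importer of SR proteins were mixed. Of 9 tested, 4 were higher, among them Clk2 (1.43 ± 0.11), and 1 was lower in WT, Srpk1 (−1.09 ± 0.10). No gene of these 4 lists passed the edgeR test between genotypes in input or in IP. Of all features, 0.0082% passed in input and 0.00764% in IP, so the lists did not stand apart in this.

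Gene totals hid a difference between the transcripts of the same gene. Retained-intron transcripts made up 13.8 ± 3.19% of SR family counts in WT input and 10.6 ± 3.56% in MUT input, against 2.28 ± 0.12% in WT IP and 1.51 ± 0.83% in MUT IP. The highest IP value, 2.54%, lay below the lowest input value, 6.44%. For hnRNP genes the same share was 3.55 ± 0.54% in WT input and 2.75 ± 0.32% in WT IP, and 3.61 ± 0.28% in MUT input and 2.78 ± 1.03% in MUT IP. These hnRNP values overlapped between fractions, and in animal 94 the IP (4.12%) was above the input (3.56%). Over all genes with coding transcripts, the retained-intron share was 3.43 ± 0.38% in WT input and 2.68 ± 0.10% in WT IP. In MUT it was 4.09 ± 0.11% and 3.68 ± 0.19%. All transcripts not annotated as coding fell from 23.2 ± 3.83% to 9.43 ± 0.24% of SR counts between WT input and WT IP, but were 23.4 ± 2.62% and 24.3 ± 1.89% of hnRNP counts. Much of the hnRNP value came from Hnrnpu, without which it was 12.6 ± 1.65% and 12.9 ± 2.14%. Over all genes it was 8.28 ± 0.54% and 7.87 ± 0.25%. These shares come from RSEM, which divides reads among overlapping transcripts by estimate, and near-identical transcripts can trade counts between libraries.

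Over the 14 libraries, transcripts other than coding ones held the largest mean shares in Hnrnpu (76.6%), Hnrnpd (54.3%), Hnrnph1 (52.8%), Hnrnpdl (51.3%) and Srsf6, and the smallest in Hnrnpc (0.09%), Hnrnpul1 (0.60%), Hnrnpm (2.07%), Hnrnpr (3.58%) and Srsf1 (6.58%). The log2 ratio of other to coding counts was tested with limma in 22 of the 23 members that have such transcripts, with animal as a block. It was lower in IP than in input for 3 members and higher for 0, beside 1.96% lower and 0.906% higher among 7397 genes tested, and the median was −0.88 against −0.37. The 3 were Hnrnpl (−3.65 ± 0.66, adjusted p of 0.0383 by limma), Hnrnph3 (−8.15 ± 1.52, 0.0396) and Srsf3 (−6.90 ± 1.46, 0.0485). Since Hnrnph3 and Srsf3 were listed at 0 in some IP libraries, the size of their values depends on the offset of 0.5. At an unadjusted p under 0.05 there were 12 members (26.0% of genes), 9 lower and 3 higher. The 3 were Hnrnpd (2.44 ± 0.78), Hnrnpdl (1.91 ± 0.70) and Hnrnpu (1.80 ± 0.58), with adjusted p of 0.0957, 0.128 and 0.0957 by limma, and the highest value was that of Hnrnpa3 (3.70 ± 1.85). Leaving out any of animals 121, 140, 17, 93 and 94 left 0 calls, and without animal 12 Hnrnpl alone was called. Without animal 69, Hnrnpl was called lower and Hnrnpa3 higher, while Hnrnph3 and Srsf3 no longer passed, and neither the 3 WT nor the 4 MUT animals alone gave any.

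Srsf3 showed the contrast most fully. Transcripts other than its coding mRNA held 27.2, 32.4 and 21.7% of its counts in WT input and 40.6, 32.9, 37.9 and 28.8% in MUT input. In the IP they held 1.82, 2.91 and 2.64% in WT and 0, 0.01, 0.92 and 2.01% in MUT. All 7 IP values lay below all 7 input values. For Hnrnpl the shares were 33.7, 32.0 and 22.6% in WT input and 14.3, 21.6, 24.4 and 30.2% in MUT input, against 1.06 to 5.50% across the 7 IP libraries. Of the 22 members, 8 had a lower share in IP than in input in all 7 animals (6.23% of genes) and 5 a higher one (4.56% of genes). For Hnrnph3, a relative of hnRNP H, they ran from 12.1 to 69.4% in input and from 0 to 4.81% in IP. Hnrnpll, Hnrnpul1, Srsf11 and Srsf5 completed the 7 members with all IP values below all input values (3.04% of genes), and Hnrnpu was the 1 member with all IP values above all input values (2.19% of genes).

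Counted alone, retained-intron transcripts were lower against coding transcripts in IP for 10 of 18 members tested and higher for 0, by limma, beside 11.7% lower and 2.41% higher among 4895 genes. The 10 were Srsf2, Srsf3, Srsf4, Srsf5, Srsf11, Hnrnpa2b1, Hnrnph3, Hnrnpl, Hnrnpll and Hnrnpul1. In Srsf11, retained-intron transcripts held 57.7, 48.2 and 34.6% of counts in WT input and 9.70, 7.53 and 7.01% in WT IP, and 41.7, 22.8, 42.4 and 47.0% in MUT input and 1.04, 0, 15.4 and 13.8% in MUT IP. These groups did not overlap. In Srsf2, which is also called SC35, the shares were 16.3, 13.9 and 11.1% in WT input and 0 in all 3 WT IP libraries, while the MUT input of animal 69 was also listed at 0. Srsf5 held 20.8, 20.7 and 13.2% in WT input and 2.10, 1.90 and 1.37% in WT IP. Hnrnpl held 14.3 to 24.3% over the 7 inputs and 1.06 to 4.59% over the 7 IP libraries. By share, 7 of the 18 members were lower in IP in all 7 animals (9.99% of genes) and 1, Hnrnpk, was higher (2.8% of genes). All 7 IP values lay below all 7 input values in 5 members, Hnrnpa2b1, Hnrnpl, Hnrnpul1, Srsf11 and Srsf3 (5.68% of genes). Without animal 121, 140 or 17 the count of 10 became 3, without animal 12 it was 8, without 69 it was 6, without 93 it was 1 and without 94 it was 2, and with the WT or the MUT animals alone it was 0.

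**Figure D4:**
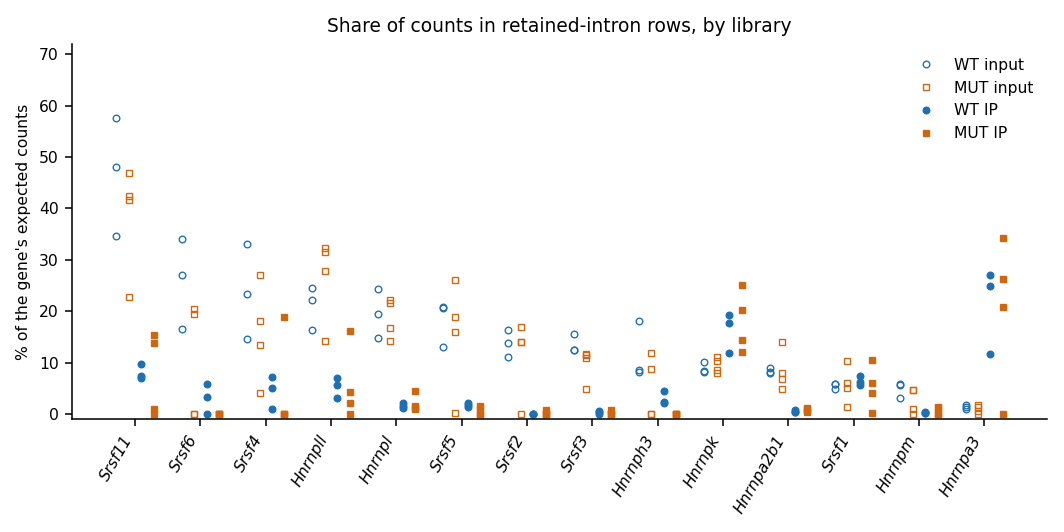
Percent of a gene's counts in retained-intron transcripts in each library, for members whose mean share is at least 2%; points are single libraries of WT and MUT, input and IP. In Srsf11, Srsf3 and Hnrnpl every IP value lies below every input value, and Hnrnpk and Hnrnpa3 are higher in most or all IP libraries.

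In Hnrnpk, and in Hnrnpa3 except in 1 animal, the share was higher in the IP. Retained-intron transcripts of Hnrnpk held 7.93 to 11.1% of its counts over the 7 inputs and 11.9 to 25.2% over the 7 IP libraries, with no overlap (1.55% of genes), although the ratio test gave an adjusted p of 0.458 by limma. For Hnrnpa3 the share was 1.74, 1.33 and 1.05% in WT input and 11.7, 25.0 and 27.0% in WT IP, and 0, 1.78, 1.39 and 0.68% in MUT input and 20.8, 0, 34.3 and 26.3% in MUT IP. Animal 69 was thus the exception, listed at 0 in the IP. The entries that carried these counts were short, namely Hnrnpk-212 of 459 nt, Hnrnpk-209 of 731 nt and Hnrnpa3-205 of 596 nt, while Srsf11-208 of 2415 nt and Srsf5-212 of 2720 nt were among those that were lower in the IP. Whether transcript length bears on this was not tested.

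NMD transcripts had no common direction. Taken alone against coding transcripts, 1 of 16 members passed, Hnrnph3, which was lower (limma, adjusted p of 0.0131, beside 0.216% lower and 0.863% higher among 2318 genes). Its NMD transcript Hnrnph3-204 was counted in all 7 inputs and was listed at 0 in 6 of the 7 IP libraries. In all 7 animals the NMD share was lower in IP for Hnrnph3 and Srsf3 (2.03% of genes) and higher for Hnrnpd, Hnrnpdl and Hnrnpu (4.7% of genes). Hnrnpu is the member with the largest share. Its NMD transcripts took 63.4, 64.8 and 56.9% of counts in WT input and 84.3, 87.3 and 80.1% in WT IP, and 57.2 to 65.7% in MUT input and 83.3 to 90.6% in MUT IP. Nearly all of this was Hnrnpu-206, whose annotated reading frame of 2379 nt compares with 2400 nt in the longest coding transcript. It is 1 of 4 NMD transcripts with at least 99% of the coding frame, together with Hnrnpa2b1-207, Hnrnpdl-201 and Srsf2-202.

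The poison exons printed above belonged to transcripts that behaved differently from gene to gene. Srsf3-201 held 11.6, 19.9 and 9.22% of Srsf3 counts in WT input and 29.2, 21.1, 33.1 and 17.8% in MUT input, but 1.69, 2.47 and 2.07% in WT IP and 0, 0, 0.92 and 1.25% in MUT IP. All IP values lay below all input values. The MUT inputs overlapped the WT inputs, with means of 25.3 and 13.6%. The ratio of all other to coding counts of Srsf3 did not pass between genotypes in input (0.54 ± 0.54, adjusted p of 0.927 by limma). That ratio is not of Srsf3-201 alone, and its standard error was as large as the difference. With NMD transcripts alone, of which Srsf3 has only Srsf3-201, 0 of 16 members passed in input by limma (0% of 2318 genes). The smallest adjusted p among those members was 0.847. Neither result shows that the genotypes were equal.

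Hnrnpl-213 held 9.38, 12.6 and 7.67% of Hnrnpl counts in WT input and 2.05, 3.28 and 2.38% in WT IP. It was listed at 0 in 2 of 4 MUT inputs and in all 4 MUT IP libraries. Its own level hardly moved in WT, with 341, 546 and 284 expected counts in input and 256, 339 and 288 in IP, so the lower share went with more coding counts in the IP. Hnrnpll-203 held 30.7, 37.5 and 28.3% in WT input and 18.6, 18.3 and 13.8% in WT IP, with no overlap, but ranged from 11.5 to 41.1% in MUT input and from 0 to 28.8% in MUT IP. The Srsf4 poison transcripts held 16.4, 17.2 and 17.5% in WT input and 13.2, 16.9 and 13.1% in WT IP, and in MUT the input of animals 12 and 69 was listed at 0 while all 4 IP libraries held 5.04 to 22.5%.

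**Figure D5:**
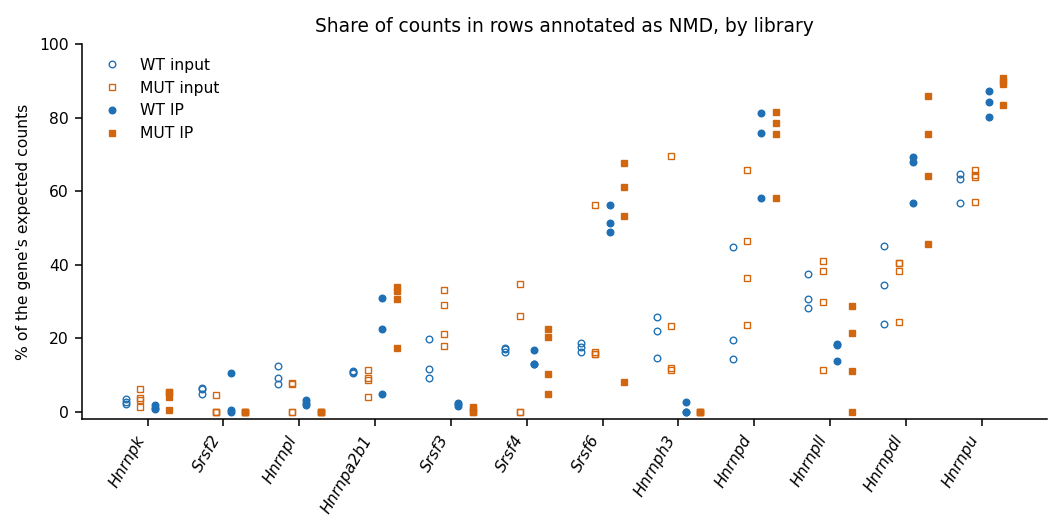
Percent of a gene's counts in NMD transcripts in each library, for members whose mean share is at least 2%; points are single libraries of WT and MUT, input and IP. Hnrnpu and Hnrnpdl are higher in every IP library than in any input, and Srsf3 and Hnrnph3 are lower.

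Tested transcript by transcript with edgeR, an analysis added after the gene totals were seen, 30 of 98 coding transcripts of the members were higher in WT IP and 0 lower, beside 4.97% higher and 1.61% lower among 56600 transcripts. Of 44 retained-intron transcripts tested, 36 lay below 0 with a median of −2.44, but 2 passed as lower and 3 as higher. Of 23 NMD transcripts, 3 passed as higher, namely Hnrnpu-206 (1.48 ± 0.10), Hnrnpdl-205 (1.66 ± 0.19) and Srsf6-201 (2.11 ± 0.17). None of these calls in WT was left when any 1 animal was removed. In MUT, 10 of 86 coding transcripts were higher (1.28% of 34124 transcripts), together with the NMD transcripts Hnrnpu-206 (1.34 ± 0.13) and Hnrnpa2b1-209 (3.65 ± 0.24). The 1 member transcript lower in MUT IP was the processed transcript Hnrnph1-204 (−3.07 ± 0.43, beside 0.636% of transcripts).

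The coding mRNA of Srsf3, Srsf3-202, had 3606, 3686 and 4529 expected counts in WT input and 12559, 11180 and 14350 in WT IP, a log2 difference of 1.96 ± 0.14. Its poison transcript Srsf3-201 had 576, 1086 and 534 in input and 217, 284 and 305 in IP, with a log2 difference of −1.12 ± 0.27 and an adjusted p of 0.117 by edgeR. The pair thus separated within each WT animal. In Srsf6 the reverse held in WT, since the NMD transcript Srsf6-201 went from 336, 459 and 321 counts in input to 1208, 1362 and 1386 in IP, while the coding Srsf6-203 had 1027, 1331 and 1188 in input and 1117, 1054 and 1224 in IP.

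Coding transcripts of 1 gene also diverged. In Srsf1 the 1209 nt transcript Srsf1-202 had 178, 391 and 344 counts in WT input and 2945, 3723 and 3435 in WT IP (adjusted p of 0.0222 by edgeR), while the 2948 nt transcript Srsf1-201 had 4049, 4895 and 3967 in input and 4161, 3307 and 4682 in IP (0.17 ± 0.17). The modest gene total of Srsf1 thus combined 1 transcript with a large difference and 1 with none that passed. Hnrnpk-213, an 810 nt coding transcript, had 445, 882 and 294 counts in WT input and 6802, 6759 and 7324 in IP (4.11 ± 0.35). Hnrnpa3-201 was listed at 0 in all 7 inputs and had 422 to 3128 counts in the 7 IP libraries.

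Transcript proportions did not pass the test between genotypes. In input, the ratio of other to coding counts differed between MUT and WT for 0 of 22 members and 0.0% of 7397 genes by limma, with 0 members at an unadjusted p under 0.05 (3.81% of genes). The interaction of fraction and genotype also gave 0 of 22 members and 0.0% of genes, with 1 member, Hnrnph3 (−8.01 ± 1.68, adjusted p of 0.641 by limma), at an unadjusted p under 0.05 (5.2% of genes). The median standard error was 0.72 in the input comparison and 1.64 in the interaction on the log2 scale, so differences of that size were not detectable.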

How the data were processed

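Stranded, rRNA-depleted total RNA-seq was made from input and anti-HA IP of 7 testes. The authors removed rRNA reads, trimmed, and estimated abundance with RSEM 1.3.3 against Ensembl transcripts of GRCm38 (mm10) plus testis transcripts assembled by them; the deposited tables hold expected counts and TPM per transcript (182829 entries, of which 92 are spike-ins and 48888 are assembled). RSEM splits reads among isoforms by estimate, so transcript values are less certain than gene totals.

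Ensembl entries were matched to GENCODE M21 (133445 of 133849), expected counts were summed per gene symbol and rounded, and assembled transcripts stayed as features of their own (102531 features). Spike-ins were left out. edgeR 4.0.16 (R 4.3.3) with TMM factors, filterByExpr and the robust quasi-likelihood test gave log2 differences, with Benjamini-Hochberg adjustment over all features. IP against input and the interaction used animal as a block, since each animal gave both libraries. The ratio of other to coding counts, log2((other + 0.5)/(coding + 0.5)), was tested with limma 3.58.1 where both classes had a mean of at least 10. DESeq2 1.42.0, other scalings, filters, limma on log2(TPM + 1) and log2(TPM + 0.1), and fits without each animal were alternatives. Scripts were tested on simulated data. CPM values use factors over all 14 libraries, and IP/input ratios those of each genotype. Members were named where they passed a test, were among the 3 largest or 3 smallest differences of a comparison, or were among the 5 highest or 5 lowest in TPM or in the share outside coding transcripts, with transcripts of at least 10% of their gene's TPM; other members and transcripts were named after their values were seen, where a count, a printed exon or a pattern rested on them. The deviations of input and IP of 1 animal from their group means correlated by 0.01 to 0.07 over features. The members and lists were chosen with earlier results of these data known. P-values of genotype comparisons within input or within IP rest on the spread between animals of the same genotype. Those of IP against input and of the interactions rest on how the difference between IP and input varied from animal to animal. For the ratio of other to coding counts in IP against input, animals of both genotypes were pooled.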

Additional observations from a re-analysis of the deposited data

Results flagged for a closer look

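In groups of 4 libraries, a library was singled out where its gap to the nearest other value was large against the range (Dixon's criterion at 95%). Of 137 groups of MUT values examined, 14 met it. For independent, normally distributed values chance gives about 1 in 20. These groups shared libraries, and some shares were listed at 0, so that rate is not a strict benchmark here. Of the 14, 7 were in animal 12, 6 in animal 69 and 1 in animal 94. Animals 12 and 69 are those with the fewest genes above 0 in their inputs.

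In IP CPM, animal 12 was low for Hnrnph3 (94.1 against 119 to 124), Hnrnpul1 (864 against 1118 to 1124) and Srsf7 (111 against 139 to 143), animal 69 was high for Hnrnpm (532 against 390 to 399) and animal 94 was low for Hnrnph1 (548 against 590.1 to 597). In input, animal 69 was low for Srsf7 (49.5 against 66.4 to 67.6 CPM). Among IP/input ratios, animal 69 was high for Hnrnpc (3.29 against 2.49 to 2.56), Hnrnpdl (2.93 against 1.35 to 1.53) and Hnrnpul2 (2.71 against 2.06 to 2.11), and animal 12 for Hnrnph2 (4.96 against 1.37 to 1.72). In the share of counts outside coding transcripts, Hnrnpr reached 13.2% in the input of animal 69 (1.33 to 1.77% in the others), Srsf2 reached 4.62% in the IP of animal 12 (0% in the others), and Hnrnpu was low in animal 12, at 59.8% in input (69.0 to 69.3% in the others) and 84.1% in IP (89.6 to 90.8% in the others). The cause was not tested.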

How the results depend on the processing

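No member passed in either genotype comparison or in the interaction under any alternative except DESeq2 in the IP, which gave 4. With IP against input in MUT, limma on log2(TPM + 1) or log2(TPM + 0.1) called 30 in place of 19, and leaving out animals 12 and 69 called 0. Without 1 animal the counts ran from 0 to 20 in WT, were 15 in MUT, and ran from 0 to 2 for the ratio of other to coding counts in IP against input. That ratio called 3 members, against 9 with an offset of 2, 5 with a mean of at least 50 in each class, 7 on TPM, 1 with NMD transcripts alone, 10 with retained-intron transcripts alone, and 0 in the WT or the MUT animals alone. Without the replicate block it called 5, and the counts for IP against input were 26 in WT and 20 in MUT, with 0 for both interactions. Input and IP came from the same animal, which is the pairing. Of 3082 member values under alternatives, 5 turned round. On the TPM scales Hnrnpr was 1.46 and 1.48 and Srsf10 2.04 and 2.07 in MUT, both below 0 on CPM, and Hnrnpa2b1 was −3.35 with retained-intron transcripts alone. A further 320 changes of sign were in values that passed in neither setting. The causes were not tested, except that a fit with an animal left out has fewer samples. Estimated isoform counts, 3 WT animals and IP libraries listed at 0 limit what the ratios can show.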
